A study of Mus musculus with 6 samples.

Results

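Type 2 immunity is described here through 10 genes, given by name: the transcription factors Gata3 and Maf, the cytokines Il4, Il5, Il13 and Il10, the cytokine receptors Il1rl1 and Il4ra, and the chemokine receptors Ccr4 and Ccr8. Each symbol had 1 row among the 55951 genes of the deposited expression table. In 9 of the 10 genes the mean level over all libraries reached the minimum for testing, and Il5 stayed below it. RNA was sequenced from effector-memory CD8+ T cells of the spleen, taken from C57BL/6 mice of genotype S100A4-EGFP in an ovalbumin model of asthma, with no further treatment. EGFP marks cells in which the S100A4 gene is active. Both groups shared the sort gate CD3+CD8+CD4-CD44+CD62L- and differed in the reporter: 3 libraries came from EGFP- cells (S100A4-negative) and 3 from EGFP+ cells (S100A4-positive). The labels give no age or sex and do not say whether the samples came from separate or pooled animals, so the p-values measure only the spread between these samples, which may be technical.

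Type 2 immunity is the branch of the immune response that dominates allergic asthma. GATA3 opens the locus that holds the genes for interleukins 4, 5 and 13; interleukin 4 signals back through IL4RA and the factor STAT6, and the alarmin interleukin 33 signals through ST2, the product of Il1rl1. CCR4 and CCR8 guide type 2 helper cells and regulatory T cells to tissue. These genes are best known in CD4+ helper cells, and CD8+ T cells with the same programme are called Tc2 cells. Several are also active outside T cells: IL4RA is found on most blood cells, c-MAF and interleukin 10 in macrophages, and interleukins 4 and 13 and ST2 in basophils and mast cells.

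Across the table, all genes with a mean FPKM (fragments per kilobase of transcript and per unit of sequencing depth) of at least 1 were compared, 13241 in number. The log2 fold change is the mean log2(FPKM + 1) of the S100A4-positive libraries less that of the S100A4-negative ones; the added 1 shrinks it for genes of low level. A gene was called at an adjusted p under 0.05 (limma, Benjamini-Hochberg over all genes tested). Of the 9 type 2 genes tested, 6 were lower in S100A4-positive libraries and 0 were higher, against 43.4% of all tested genes called lower and 19.0% called higher. Gata3, Il4 and Il13 fell, by factors of 4.56, 4.17 and 14.6 in mean FPKM, and their calls held under every alternative in which they were tested. Il1rl1, Il4ra and Ccr8 were lower by smaller amounts, and their calls were lost after median-of-ratios rescaling, where 3 of the 9 genes were called lower against 24.3% of all tested genes (52.0% called in either direction), and after quantile normalization, with 3 of 9 against 31.6% (54.5% in either direction). Ccr4, Maf and Il10 did not pass the test. The median log2 fold change was -0.88 over the 9 genes and -0.36 over all tested genes.

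The libraries differed in ways that bear on these genes. S100a4 itself was at 0, 0.405 and 0.129 FPKM in S100A4-negative libraries 1 to 3 and at 1.27, 4.02 and 1.52 in the S100A4-positive ones. These rest on at most 3 reads in an S100A4-negative and at least 9 in an S100A4-positive library. Of 12 T cell markers, 12 fell; their summed level was 2020.9 to 2543.5 FPKM in S100A4-negative and 335 to 461 in S100A4-positive libraries. Of 20 macrophage and monocyte markers, 20 rose, with sums of 639 to 915 against 8965.0 to 9851.7 FPKM. Dendritic cell markers included 8 of 10 that rose, and B and plasma cell markers 10 of 10 that fell (6 of 10 after median-of-ratios rescaling). Of 9 neutrophil markers, 8 fell, also after that rescaling. Their sums were 3314.1 to 4984.2 FPKM in S100A4-negative and 419 to 1755.1 in S100A4-positive libraries. In S100A4-negative replicate 2, Cd4, whose protein the gate excludes, was at 337 FPKM against 67.2 and 111 in replicates 1 and 3. Cd8a was at 85.2 there against 187 and 139. In S100A4-positive replicates 1 to 3, Cd4 was at 42.5, 52.4 and 66.6 FPKM and Cd8a at 13.6, 22.4 and 31.9. Cd4 RNA was thus above Cd8a RNA in each S100A4-positive library. Between the groups Cd4 was not called (log2 fold change -1.35, limma adjusted p = 0.0576). In S100A4-negative replicate 3, the basophil protease genes Mcpt8 and Prss34 were at 52.0 and 38.7 FPKM, against at most 9.72 and 11.8 in the other S100A4-negative libraries. A lower level in such bulk RNA can mean fewer cells of a type or less RNA per cell, and these cannot be told apart.

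**Figure D1:**
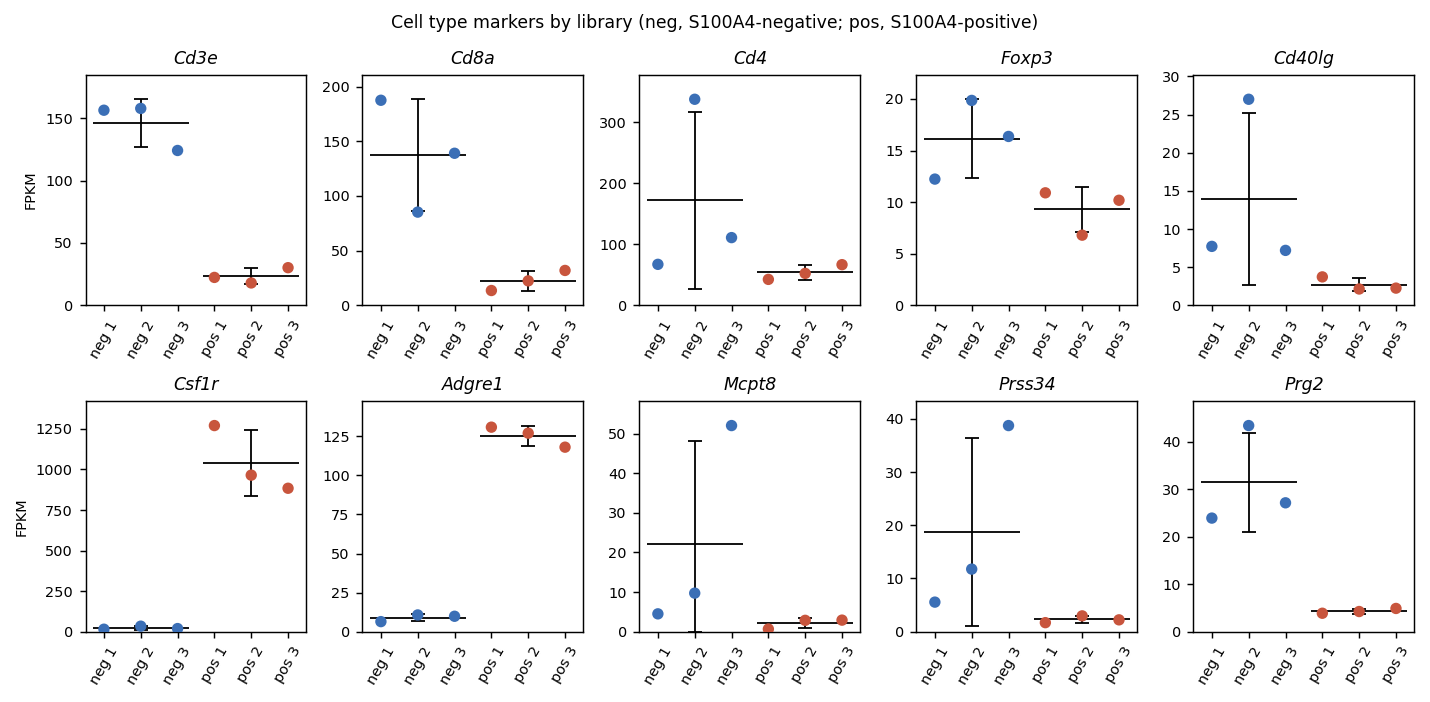
FPKM of 10 cell type markers in each library (points: blue, S100A4-negative; red, S100A4-positive), with the mean (line) and SD (bar, ended at 0 where it would pass below) of 3 libraries; each panel has its own linear axis from 0. Cd3e and Cd8a are lower and Csf1r and Adgre1 higher in all 3 S100A4-positive libraries, Cd4 and Cd40lg stand out in S100A4-negative replicate 2, and Mcpt8 and Prss34 in S100A4-negative replicate 3.

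Gata3, the master factor of type 2 T cells, which CD8+ T cells also need for their development, was at 61.1, 62.3 and 35.0 FPKM in S100A4-negative replicates 1 to 3. In S100A4-positive replicates 1 to 3 it was at 14.1, 9.08 and 11.6. The groups did not overlap, and the lowest S100A4-negative library was still well above the highest S100A4-positive one. The mean went from 52.8 ± 15.4 to 11.6 ± 2.49 FPKM (SD, n = 3; log2 fold change -2.07 with SE 0.25, adjusted p by limma = 4.97e-04). Gata3 (ENSMUSG00000015619) lies on chromosome 2, 9857078 to 9890034 of the mouse build GRCm38, on the - strand; 3.90% of its exon bases also belong to the antisense gene Gm13256, which reached at most 0.23 FPKM. Without S100A4-negative replicate 2, the library high in Cd4, the log2 fold change was -1.93 (limma adjusted p = 0.00284), and after median-of-ratios rescaling it was -1.70 (0.00189).

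Maf encodes c-MAF, a factor that drives Il4 in type 2 cells and Il10 in many T cells and macrophages. It was at 9.18, 28.4 and 13.9 FPKM in S100A4-negative replicates 1 to 3 and at 20.1, 10.2 and 14.3 in the S100A4-positive ones. The groups overlapped, and the highest value was again that of S100A4-negative replicate 2. The means were 17.2 ± 10.01 and 14.9 ± 4.97 FPKM (SD, n = 3), a log2 fold change of -0.10 (SE 0.40) that did not pass (limma adjusted p = 0.837). Its sign turned without S100A4-negative replicate 2 (0.32, limma adjusted p = 0.405), without S100A4-positive replicate 2 (0.13, 0.820) and after median-of-ratios rescaling (0.26, 0.614). Maf (ENSMUSG00000055435) lies on chromosome 8, 115682942 to 115707794, on the - strand; 5.34% of its exon bases also belong to the antisense gene Gm15655, which was listed at 0 in every library.

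The genes for interleukins 4, 13 and 5 lie beside each other on chromosome 11, with the DNA repair gene Rad50 between Il13 and Il5. Il4 (ENSMUSG00000000869) spans 53602982 to 53618669, Il13 (ENSMUSG00000020383) 53631324 to 53634702, Rad50 53649519 to 53707319 and Il5 (ENSMUSG00000036117) 53720794 to 53725106; all but Il5 are on the - strand. The gaps between neighbours in this order are 12.7, 14.8 and 13.5 kb. The start regions of the 3 cytokine genes are shown because these genes are the known targets of GATA3, whose RNA fell together with those of Il4 and Il13. Each sequence runs 5′ to 3′ on the gene's strand from 250 bases before the RefSeq start site through the 30 bases from it on (build GRCm38.p6), and capitals mark the usual letters of GATA factors on either strand: AGATAA, or the same with T as its first base, with G as its last, or with both.

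Il4 (chr11:53618636-53618915, - strand): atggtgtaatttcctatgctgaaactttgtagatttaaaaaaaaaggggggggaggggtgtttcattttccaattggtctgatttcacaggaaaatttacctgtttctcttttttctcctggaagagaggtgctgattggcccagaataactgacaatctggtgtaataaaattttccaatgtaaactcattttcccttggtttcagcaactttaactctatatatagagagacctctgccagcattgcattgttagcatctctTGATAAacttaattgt

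Il13 (chr11:53634673-53634952, - strand): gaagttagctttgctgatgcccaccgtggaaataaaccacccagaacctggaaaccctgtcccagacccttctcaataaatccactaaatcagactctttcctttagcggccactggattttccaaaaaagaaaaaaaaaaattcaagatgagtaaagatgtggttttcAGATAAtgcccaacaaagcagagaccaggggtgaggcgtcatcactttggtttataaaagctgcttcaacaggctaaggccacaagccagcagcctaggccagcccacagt

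Il5 (chr11:53720544-53720823, + strand): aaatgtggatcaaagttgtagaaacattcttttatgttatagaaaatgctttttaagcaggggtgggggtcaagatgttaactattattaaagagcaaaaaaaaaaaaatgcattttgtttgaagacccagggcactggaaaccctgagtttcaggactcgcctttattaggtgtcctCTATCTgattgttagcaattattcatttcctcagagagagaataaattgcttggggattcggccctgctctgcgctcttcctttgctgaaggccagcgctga

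Each of the 3 windows held 1 such match, and 28.7% of the 32851 windows of this length in the RefSeq table held at least 1. Counted from the start site as 0, the matches began at position 14 in Il4, -81 in Il13 and -72 in Il5. The MAF half-site TGCTGA, on either strand, occurred 3 times in the Il4 window and 1 time in each of the others, with at least 1 in 18.2% of all windows. The NFAT core GGAAA, on either strand, occurred 5, 4 and 2 times in Il4, Il13 and Il5, and in 59.2% of all windows. Of the 10 genes, 8 had at least 1 window in the table; Il4 had 2, of which the one nearest the annotated gene start is shown. Letter matches describe these windows and were not measured as bound sites.

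Il4, the cytokine that starts type 2 differentiation and the switch to IgE, was at 1.77, 4.17 and 3.21 FPKM in S100A4-negative replicates 1 to 3, from 17, 42 and 34 reads. In S100A4-positive replicates 1 to 3 it was at 0.520, 1.06 and 0.610 FPKM, from 5, 9 and 6 reads. The groups did not overlap, and S100A4-negative replicate 2 was highest. The mean went from 3.05 ± 1.21 to 0.731 ± 0.291 FPKM (SD, n = 3; log2 fold change -1.19 with SE 0.26, adjusted p by limma = 0.00641). On the recovered reads themselves limma voom gave -1.98 (adjusted p = 0.0106).

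Il13, the cytokine behind mucus production and airway hyperresponsiveness, was at 1.08, 2.05 and 2.98 FPKM in S100A4-negative replicates 1 to 3, from 22, 44 and 67 reads. In S100A4-positive replicates 1 to 3 only 3, 4 and 1 reads were recovered, or 0.147, 0.222 and 0.0478 FPKM. The S100A4-positive libraries thus held Il13 near the limit of detection, and the groups did not overlap. The mean went from 2.04 ± 0.952 to 0.139 ± 0.0876 FPKM (SD, n = 3; log2 fold change -1.37 with SE 0.26, adjusted p by limma = 0.00321), or -3.74 with limma voom on the reads (adjusted p = 0.00277). In fold of mean FPKM this was the largest difference among the 9 tested genes, and the pseudocount of 1 hides most of it.

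Markers of mast cells and basophils, which also make these cytokines, mostly moved in the same direction. Of 10 tested mast cell and basophil markers, 9 fell and 1, Kit, was called higher with overlapping groups (limma adjusted p = 0.0479; up to 0.151 without single libraries); their summed level over 13 genes was 91.9, 133 and 282 FPKM in S100A4-negative replicates 1 to 3 and 35.0, 86.2 and 59.7 in the S100A4-positive ones. None of the 13 was at 0 in every library. Mcpt8 had a log2 fold change of -2.32 (limma adjusted p = 0.0344), a call lost on leaving out S100A4-negative replicate 2 or any S100A4-positive library (limma adjusted p of 0.0572, 0.0895, 0.0646 and 0.0554) and after median-of-ratios rescaling (0.0650). The part of such cells in the levels of Il4 and Il13 was not tested. Il13 was highest in the library highest in Mcpt8, S100A4-negative replicate 3, whereas Il4 was highest in S100A4-negative replicate 2. Both genes were compared again with single libraries left out. Without S100A4-negative replicate 3 the log2 fold changes of Il4 and Il13 were -1.14 and -1.15 (limma adjusted p = 0.0247 and 0.00950), and without S100A4-negative replicate 2 they were -0.99 and -1.34 (0.0204 and 0.0125).

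Il5, the growth factor of eosinophils, was almost absent: 0, 4 and 3 reads were recovered in S100A4-negative replicates 1 to 3 and 0, 1 and 1 in the S100A4-positive ones. The highest level was 0.146 FPKM, in S100A4-negative replicate 2. The groups overlapped, a two-sided exact permutation of the 6 FPKM values gave p = 0.4 (3 against 3 allows no less than 0.1), and no fold is given at this depth. A share of 27.1% of the exon bases of Il5 also belongs to the antisense gene Gm12214, which was listed at 0 in every library. Rad50, which lies inside the cluster, was at 15.1 ± 2.56 and 10.998 ± 1.59 FPKM (SD, n = 3), a log2 fold change of -0.42 that did not pass (limma adjusted p = 0.0653; 0.0338 without S100A4-negative replicate 2). Irf1, the interferon response factor on the far side of Il5, rose from 151 ± 4.45 to 335 ± 58.9 FPKM (limma adjusted p = 7.50e-04). On the side of Il4, Kif3a rose from 2.21 ± 0.284 to 3.37 ± 0.313 FPKM and Septin8 from 3.47 ± 0.556 to 8.72 ± 1.77 (limma adjusted p = 0.0386 and 0.00176). Of 5 tested neighbours, 3 rose, 0 fell and 2, Rad50 and Slc22a5, did not pass, against 19.0% of all tested genes called higher.

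Il10, which encodes an anti-inflammatory cytokine made by type 2 cells, regulatory T cells and macrophages, had higher levels in 2 of the 3 S100A4-positive libraries. It was at 7.82, 24.4 and 15.6 FPKM in S100A4-negative replicates 1 to 3 and at 14.2, 65.9 and 62.0 in S100A4-positive replicates 1 to 3. S100A4-positive replicate 1 lay inside the range of the S100A4-negative libraries, so the groups overlapped. The means were 15.9 ± 8.29 and 47.4 ± 28.8 FPKM (SD, n = 3), and the log2 fold change of 1.37 (SE 0.62) did not pass (limma adjusted p = 0.0873). Without S100A4-positive replicate 1 it was 2.07 and passed (limma adjusted p = 0.00480); without S100A4-negative replicate 1 it was 0.96, and without S100A4-positive replicate 2 or 3 it was 1.00 and 1.04, none of them past the threshold (0.237, 0.250 and 0.229). Il10 (ENSMUSG00000016529) lies on chromosome 1, 131019845 to 131024974, on the + strand.

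**Figure D2:**
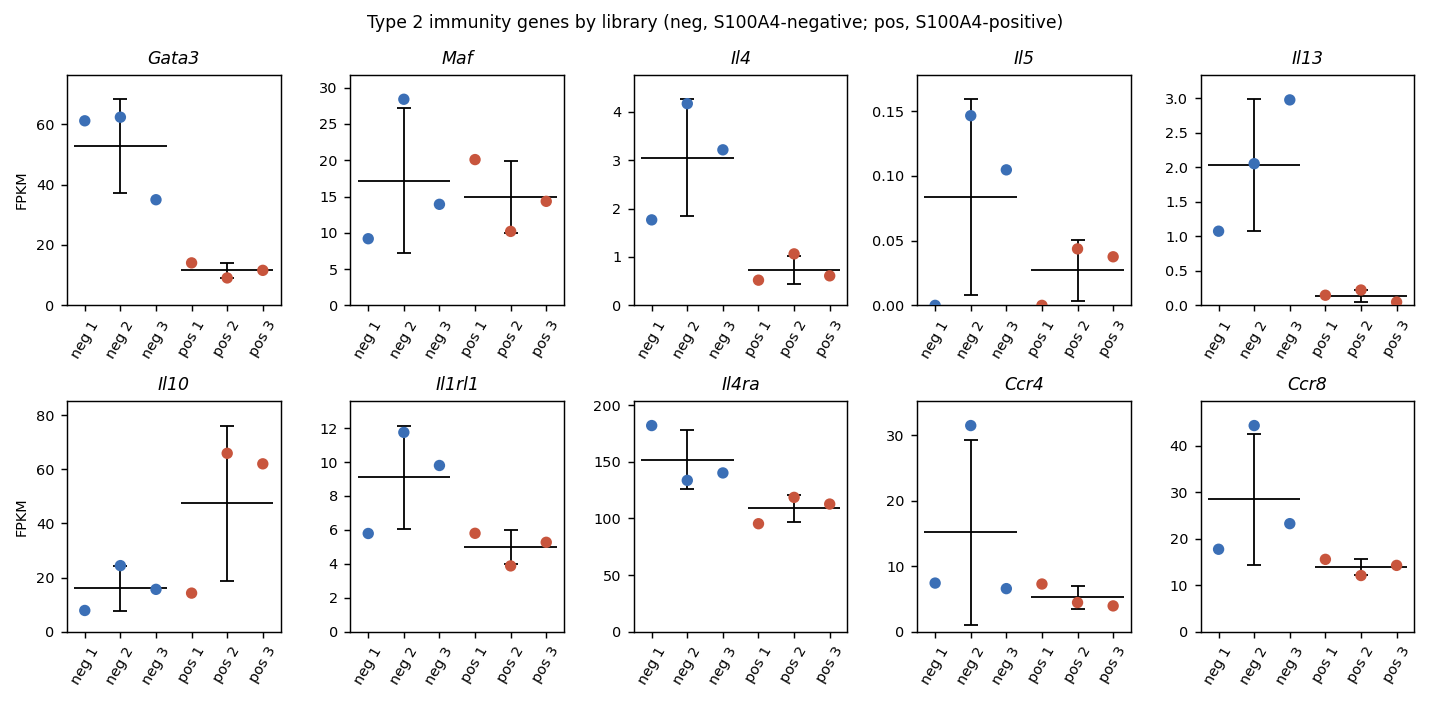
FPKM of the 10 type 2 genes in each library (points: blue, S100A4-negative; red, S100A4-positive), with the mean (line) and SD (bar) of 3 libraries; each panel has its own linear axis from 0. Gata3, Il4 and Il13 are lower in all 3 S100A4-positive libraries, Ccr4, Ccr8 and Maf peak in S100A4-negative replicate 2, and Il10 is high in S100A4-positive replicates 2 and 3.

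Il1rl1 encodes ST2, the receptor for interleukin 33, as a membrane form and a soluble form that gene-level values do not separate. It was at 5.79, 11.7 and 9.80 FPKM in S100A4-negative replicates 1 to 3 and at 5.80, 3.88 and 5.27 in the S100A4-positive ones. The groups touched, since S100A4-negative replicate 1 and S100A4-positive replicate 1 were level. The mean went from 9.11 ± 3.04 to 4.98 ± 0.993 FPKM (SD, n = 3; log2 fold change -0.72 with SE 0.26, adjusted p by limma = 0.0417). The call was lost without S100A4-negative replicate 2 or 3 (limma adjusted p = 0.130 and 0.118) and without S100A4-positive replicate 2 or 3 (0.126 and 0.0759), and after median-of-ratios rescaling the value was -0.39 (0.227). Il1rl1 (ENSMUSG00000026069) lies on chromosome 1, 40429570 to 40465415, on the + strand.

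Il4ra, the subunit shared by the receptors for interleukins 4 and 13, had the highest level of the 10 genes. It was at 182, 134 and 140.1 FPKM in S100A4-negative replicates 1 to 3 and at 95.3, 119 and 113 in the S100A4-positive ones. The groups did not overlap, but their nearest libraries were close. The mean went from 152 ± 26.2 to 109 ± 12.1 FPKM (SD, n = 3; log2 fold change -0.47 with SE 0.16, adjusted p by limma = 0.0327). The call was lost without S100A4-negative replicate 1 or 3 (limma adjusted p = 0.0877 and 0.0561) and without S100A4-positive replicate 1 or 3 (0.0763 and 0.0664), and after median-of-ratios rescaling the value was -0.085 (0.691). Il4ra (ENSMUSG00000030748) lies on chromosome 7, 125552120 to 125579474, on the + strand; 9.51% of its exon bases also belong to the antisense gene Gm44876, which reached at most 0.35 FPKM.

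The 2 chains that pair with IL4RA differed in direction. Il2rg, the common gamma chain of the receptor on lymphocytes, was at 194, 151 and 145 FPKM in S100A4-negative replicates 1 to 3 and at 124, 112 and 121 in the S100A4-positive ones, with a log2 fold change of -0.44 (limma adjusted p = 0.0276) beside the -0.47 of Il4ra. Its groups did not overlap. The Il2rg call was lost after median-of-ratios rescaling (-0.059, limma adjusted p = 0.756) and on leaving out replicate 1 of the S100A4-negative group (0.0685) or replicate 2 or 3 of the other (0.0818 and 0.0651). Il13ra1, which completes the receptor that binds interleukin 13 and is known from macrophages and epithelium, rose from 1.72 ± 0.566 to 16.6 ± 2.69 FPKM (SD, n = 3; limma adjusted p = 6.76e-05). Jak3, the kinase bound to the common gamma chain, fell from 63.3 ± 3.39 to 24.3 ± 3.80 FPKM (limma adjusted p = 2.44e-04). Jak1, the kinase bound to IL4RA, had a log2 fold change of -0.81 (limma adjusted p = 0.00271), which did not pass after median-of-ratios rescaling (0.0544). Of 12 tested genes of interleukin 4 and 13 signalling, 4 were higher, 4 lower and 4 not called, with a median log2 fold change of -0.15. The median was 0.22 after median-of-ratios rescaling and 0.023 after quantile normalization, so the list had no direction that survived scaling.

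Ccr4, the receptor for the chemokines CCL17 and CCL22, was at 7.42, 31.5 and 6.57 FPKM in S100A4-negative replicates 1 to 3 and at 7.27, 4.44 and 3.93 in the S100A4-positive ones. S100A4-negative replicate 2 was far above the rest, and the groups overlapped. The means were 15.2 ± 14.1 and 5.22 ± 1.80 FPKM (SD, n = 3), and the log2 fold change of -1.07 (SE 0.54) did not pass (limma adjusted p = 0.118). Without S100A4-negative replicate 2 it was -0.40 (limma adjusted p = 0.226). Ccr4 (ENSMUSG00000047898) lies on chromosome 9, 114490316 to 114504916, on the - strand.

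Ccr8, the receptor for CCL1 and, in mice, CCL8, was at 17.7, 44.4 and 23.3 FPKM in S100A4-negative replicates 1 to 3 and at 15.6, 12.1 and 14.3 in the S100A4-positive ones. The groups did not overlap, and S100A4-negative replicate 2 was again the highest. The mean went from 28.5 ± 14.1 to 14.0 ± 1.76 FPKM (SD, n = 3; log2 fold change -0.88 with SE 0.31, adjusted p by limma = 0.0382). Without S100A4-negative replicate 2 it was -0.52 (limma adjusted p = 0.0542); the call was also lost without S100A4-negative replicate 3 (0.0637) and without S100A4-positive replicate 1, 2 or 3 (0.0511, 0.111 and 0.0787). After median-of-ratios rescaling it was -0.51 (0.210). Ccr8 (ENSMUSG00000042262) lies on chromosome 9, 120092114 to 120094906, on the + strand.

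Over the 10 genes, S100A4-negative replicate 2 held the highest value of the 3 S100A4-negative libraries in 8 and the highest of all 6 libraries in 7. No such share over all tested genes is given here, so the counts for this library describe these 10 genes only. The summed level of 10 markers of CD4+ helper and regulatory T cells peaked in the same library. It was 486, 1087.3 and 606 FPKM in S100A4-negative replicates 1 to 3 and 229, 227 and 299 in the S100A4-positive ones. None of the 10 was at 0 in every library. Most were highest in that library, but Cxcr5 was at 67.0 FPKM there and at 75.5 in S100A4-negative replicate 3. Zbtb7b was at 21.5 FPKM there and at 40.6, 18.8 and 31.4 in S100A4-positive replicates 1 to 3. The level of Il2ra was nearly flat, at 19.3, 19.8 and 18.2 FPKM in S100A4-negative replicates 1 to 3. Cd40lg, the helper cell ligand for CD40, was at 7.73, 27.0 and 7.20 FPKM in S100A4-negative replicates 1 to 3, and Foxp3, the factor of regulatory T cells, at 12.2, 19.9 and 16.4. Of the 10 markers 7 fell, 0 rose and 3 did not pass, with log2 fold changes of -2.44 for Ctla4 and -1.91 for Ikzf2; after median-of-ratios rescaling 5 were lower and 1 higher, and after quantile normalization 6 and 1. The part of such cells in the levels of Ccr4, Ccr8, Il1rl1 and Maf was not tested. Among the 9 tested type 2 genes the groups did not overlap in 5, against 70.0% of all tested genes.

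**Figure D3:**
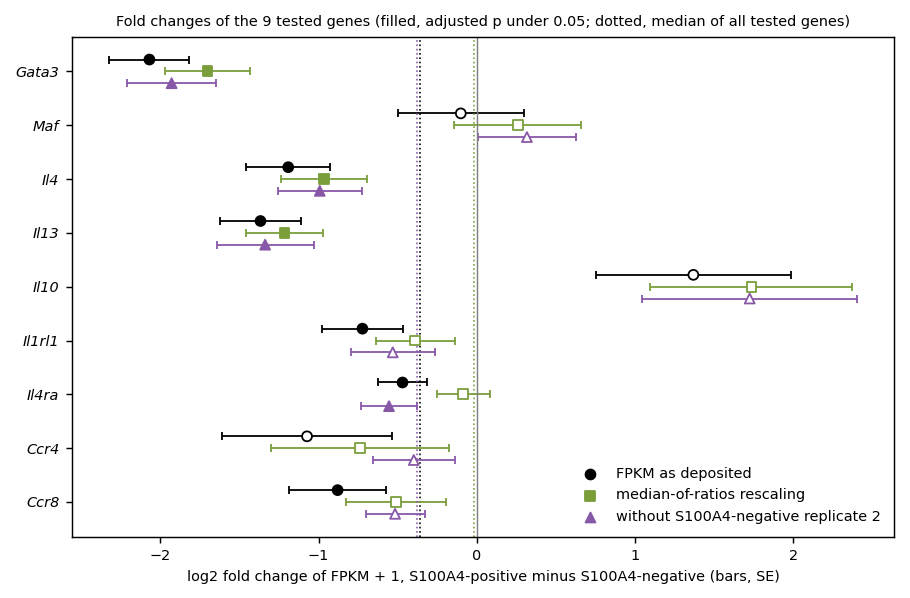
Log2 fold change of FPKM + 1, S100A4-positive minus S100A4-negative, with its SE, for the 9 tested type 2 genes with FPKM as deposited (black circles), after median-of-ratios rescaling (green squares) and without S100A4-negative replicate 2 (purple triangles); filled symbols have a limma adjusted p under 0.05, and dotted lines mark the median of all tested genes. Gata3, Il4 and Il13 stay filled and below 0 in all 3, whereas Il1rl1, Il4ra and Ccr8 lose their fill after rescaling.

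Because T cell markers fell so widely, each gene was also compared with the CD3 chains of the same library, in which the scaling between libraries cancels except for the added 1. The geometric mean of Cd3d, Cd3e and Cd3g was 155 ± 13.9 FPKM in the S100A4-negative group and 26.1 ± 7.62 in the other (SD, n = 3), a 5.93-fold difference. Relative to it 96.4% of all tested genes were called, 95.7% higher in S100A4-positive libraries and 0.695% lower, with a median of 2.20 on the log2 scale, so a rise relative to CD3 was the rule across the table. Of the 9 type 2 genes, 8 were higher relative to CD3, 0 lower and 1 not called, with a median of 1.67. The gene not called was Gata3.

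Gata3 was at 40.2%, 36.8% and 24.6% of the CD3 level in S100A4-negative replicates 1 to 3 and at 69.7%, 38.9% and 33.4% in the S100A4-positive ones. The groups overlapped, and the difference of 0.48 (SE 0.33) did not pass (limma adjusted p = 0.148), which does not show that Gata3 and CD3 fell alike; without S100A4-positive replicate 3 it was 0.69 and passed (0.0319). Il10 stood at the other end, at 5.15%, 14.4% and 11.003% of CD3 against 70.6%, 282% and 179% (difference 3.92, SE 0.33, limma adjusted p = 4.17e-31). Maf, Il4ra, Il1rl1, Ccr8 and Ccr4 differed by 2.45, 2.08, 1.83, 1.67 and 1.48 (limma adjusted p from 7.02e-13 for Maf to 1.81e-05 for Ccr4), of which only the value of Maf lay above the median of all genes. The spread of the shared CD3 reference enters every gene, and limma with a constant prior gave Il10 and Ccr4 the same SE (0.357). The limma p-values relative to CD3 thus do not measure the spread of the single gene. Exact two-sided permutation of the percents gave p = 0.1 for Il10 and Maf, the least that 3 against 3 allows, and 0.2 for Ccr4.

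For Il4 and Il13 the comparison with CD3 turned on the pseudocount. With FPKM + 1 both were higher relative to CD3, by 1.36 and 1.19 (limma adjusted p = 3.27e-04 and 0.00249). With FPKM + 0.1 the values were 0.70 and -0.53 and neither passed (limma adjusted p = 0.191 and 0.487), and on the recovered reads they were 0.61 and -1.15 (limma voom adjusted p = 0.490 and 0.292). As a share of the CD3 level, Il4 was at 1.16%, 2.46% and 2.26% in S100A4-negative and 2.58%, 4.55% and 1.76% in S100A4-positive replicates 1 to 3, and Il13 at 0.707%, 1.21% and 2.098% against 0.728%, 0.952% and 0.138%. The groups overlapped for both genes, and no direction relative to CD3 was resolved at this depth.

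**Figure D4:**
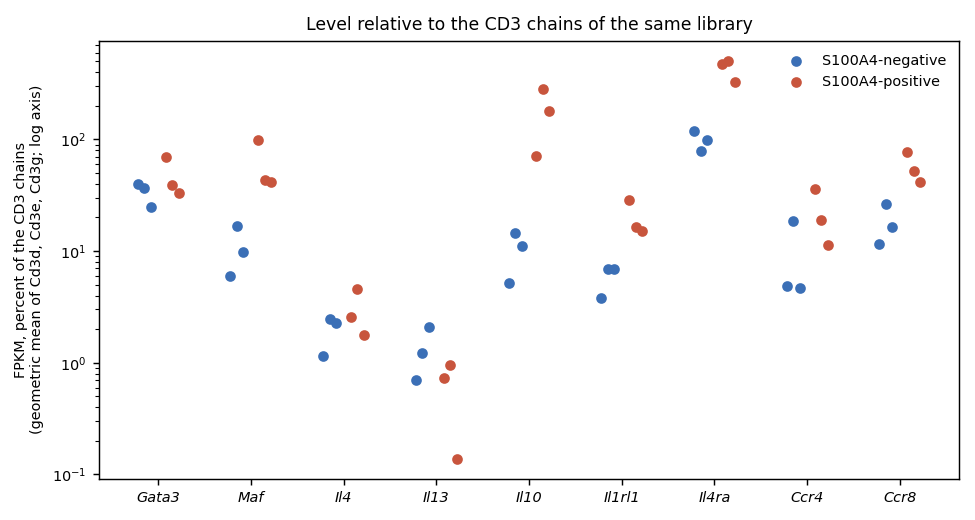
FPKM of 9 type 2 genes as a percent of the geometric mean of Cd3d, Cd3e and Cd3g in the same library, on a log axis; points are libraries (blue, S100A4-negative; red, S100A4-positive; replicates 1 to 3 from left to right). The groups overlap for Gata3, Il4, Il13 and Ccr4 and are apart for Maf, Il10, Il1rl1, Il4ra and Ccr8, all higher in S100A4-positive libraries.

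The other genes of the type 2 pathway went both ways. Of 21 genes that work with GATA3 or follow it, transcription factors and the receptors Notch1 and Notch2, 12 fell, 5 rose and 4 did not pass (median -0.84). Tcf7, which promotes Gata3 expression, and Ets1, a factor of T cell differentiation, fell from 421 ± 144 to 79.1 ± 13.8 and from 620 ± 83.1 to 138 ± 20.6 FPKM (SD, n = 3; limma adjusted p = 2.66e-04 and 7.46e-05). Satb1, a chromatin organiser that folds the type 2 cytokine locus, fell by 2.001 on the log2 scale (limma adjusted p = 2.28e-04). Pparg, a nuclear receptor of type 2 T cells and also of macrophages, rose from 0.935 ± 0.532 to 78.2 ± 1.18 FPKM (limma adjusted p = 8.72e-06), and Batf3, a factor of dendritic cells, and the receptor Notch2 rose by log2 fold changes of 2.81 and 1.44. Stat6, the factor that interleukin 4 activates, rose by 0.38 (limma adjusted p = 0.0426). The call was lost on leaving out any library but S100A4-positive replicate 2 (up to 0.111). After median-of-ratios rescaling the value was 0.77 and passed (0.00241), whereas after quantile normalization it was 0.34 and did not (0.0781). Without a filter, with a minimum mean FPKM of 0.1 and with a constant prior the call was also lost (0.0775, 0.0550 and 0.0543). The rise of the 20 macrophage markers stands beside these values, and its part in them was not tested.

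Most type 1 counterparts were lower as well. Of 12, 10 fell, 0 rose and 2 did not pass, against 43.4% of all tested genes called lower. After median-of-ratios rescaling 9 fell, against 24.3% of all tested genes. Their median was -1.57, and -1.25 after that rescaling, beside -2.61 and -2.22 for the 12 T cell markers. Tbx21, which encodes T-bet and opposes GATA3, fell from 21.3 ± 3.51 to 3.29 ± 1.31 FPKM (SD, n = 3; log2 fold change -2.41, limma adjusted p = 1.88e-04), a factor of 6.47 beside the 4.56 of Gata3. Eomes, its T-box relative, and Cxcr3, a chemokine receptor of type 1 cells, had log2 fold changes of -2.89 and -2.37. Whether the type 1 and type 2 genes differ in the size of their fall was not tested.

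The genes of the alarmins themselves were scarcely detected. Il33 and Tslp were below the minimum for testing, and Il25 was listed at 0 in every library. Myd88, the adaptor of ST2 and of Toll-like receptors, rose from 29.98 ± 0.689 to 95.5 ± 18.2 FPKM (SD, n = 3; limma adjusted p = 1.45e-04), and Crlf2, the receptor for TSLP, rose by a log2 fold change of 0.57 (0.00925), whereas Il7r, which pairs with CRLF2 and also serves memory T cells, fell by 1.44 (3.30e-04). Of 9 tested genes of this axis 4 rose, 3 fell and 2 did not pass. Il1rap, the ST2 partner, had a log2 fold change of -0.43 (limma adjusted p = 0.0307) and lost its call after median-of-ratios rescaling (-0.094, 0.588) and without each library but S100A4-positive replicate 1 (up to 0.0969).

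The CCR4 ligand Ccl22, made by dendritic cells and macrophages, rose from 1.69 ± 0.655 to 42.4 ± 15.3 FPKM (SD, n = 3; limma adjusted p = 7.81e-05), while the other ligands Ccl17, Ccl1 and Ccl8 stayed below the minimum for testing. Ccl24, an eosinophil attractant of macrophages, rose by 2.99 (limma adjusted p = 1.25e-04). Of 12 genes in the list of chemoattraction, 5 were tested, of which 3 rose, 1 fell and 1 did not pass. The gene that fell was S1pr1, which lets T cells leave lymphoid organs, by 2.17 on the log2 scale (limma adjusted p = 3.12e-05).

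Around Il10, both receptor chains rose: Il10ra from 45.7 ± 4.50 to 192 ± 17.5 FPKM and Il10rb from 23.0 ± 3.32 to 51.7 ± 2.89 (SD, n = 3; limma adjusted p = 3.80e-05 and 4.38e-04). Prdm1, which encodes BLIMP1 and drives Il10 in T cells, rose by 1.09 (limma adjusted p = 0.00220), while Icos, a costimulator of Il10 and Il4 production, and Il27ra, a receptor whose ligand drives Il10, fell by 1.95 and 2.27 (2.54e-04 and 4.00e-05). The list had 4 higher, 5 lower and 1 not called of 10, with a median of -0.012 that was 0.37 after median-of-ratios rescaling. Genes that interleukin 4 raises in macrophages included 6 higher, 1 lower and 2 not called of 9 tested. Tgm2 and Clec7a rose by log2 fold changes of 4.42 and 3.99 (limma adjusted p = 6.64e-05 and 4.21e-05), Arg1 was at 1.02 ± 0.637 and 1.20 ± 0.696 FPKM, and Retnla, the best known of this group, was listed at 0 in every library. Alox15, a lipoxygenase of eosinophils and macrophages, was the gene that fell, by 1.55. The median log2 fold change of this macrophage list was 1.32, beside 3.51 for the 20 macrophage and monocyte markers, all of which rose. The part of macrophages in these values was not tested.

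Receptors of the other type 2 cytokines also split. Csf2ra and Csf2rb, the chains of the receptor for granulocyte-macrophage colony-stimulating factor, of which CSF2RB also serves interleukins 3 and 5, rose from 45.3 ± 9.04 to 486 ± 25.8 and from 67.0 ± 36.4 to 324 ± 90.0 FPKM (SD, n = 3; limma adjusted p = 1.66e-05 and 0.00127). Reads of Csf2rb and its near copy Csf2rb2 could be divided between them. Il9r and Il21r, receptors on lymphocytes, fell by 1.53 and 1.26 (limma adjusted p = 0.00439 and 5.39e-04). Il9 and Il3 were listed at 0 in every library. Of 10 tested genes 4 rose, 4 fell and 2 did not pass. Eosinophil markers showed no common direction. Of 8 listed, 4 were tested, of which 2 fell, 1 rose and 1 did not pass. Prg2 fell from 31.5 ± 10.4 to 4.33 ± 0.511 FPKM (limma adjusted p = 1.29e-04). Il5ra fell by 1.08 on the log2 scale (limma adjusted p = 0.0221), a call lost after median-of-ratios rescaling (0.0591). Siglecf, at a low level, rose from 0.809 ± 0.114 to 2.31 ± 1.09 FPKM (log2 fold change 0.83, limma adjusted p = 0.0219). Its call was lost without S100A4-negative replicate 1 or 3 (0.0599 and 0.0546).

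**Figure D5:**
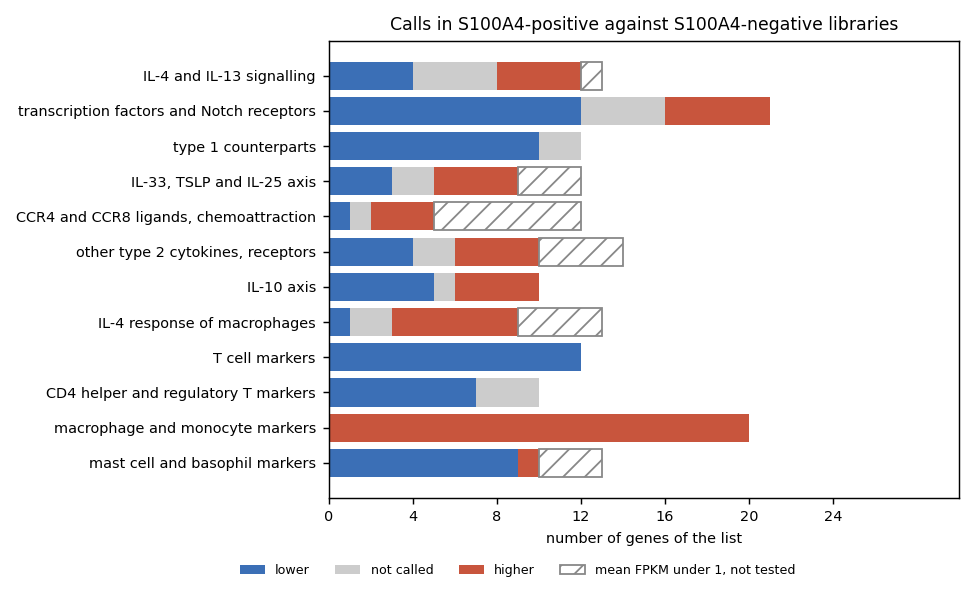
Number of genes per list that were lower (blue), not called (grey) or higher (red) in S100A4-positive libraries at a limma adjusted p under 0.05, with genes under a mean FPKM of 1 hatched. All 12 T cell markers are lower and all 20 macrophage and monocyte markers higher, while the lists of the type 2 pathway hold genes of both directions.

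Likeness to other genes was described by the Pearson correlation of log2(FPKM + 1) over the 6 libraries, which share the difference between the groups. The nearest genes were picked from all 13241 tested genes, and with only 6 libraries such picking can give values near these for unrelated genes. The values therefore describe patterns and do not show shared regulation. The pattern most like that of Gata3 was that of Tob2 (r = 0.999), followed by the receptor segment Trbv19 and by Alox8 (both 0.998). The levels of Il13 were followed most closely by Rhbdf1 (0.999). For Il10 the nearest genes were Ndufaf3 (0.995), Eif4e2 (0.994) and Il1r2 (0.990), of which Il1r2 was at 51.9, 194 and 151 FPKM in S100A4-positive replicates 1 to 3, low in the same library as Il10. For Ccr8 they were Angptl2, Bcam and Hif1a (0.993, 0.993 and 0.988), and Angptl2 was at 18.1 FPKM in S100A4-negative replicate 2 against at most 6.72 in the other libraries. The nearest gene to Maf was Nav2 (0.955), at 28.6 FPKM in S100A4-negative replicate 2 and 16.4 or less elsewhere.

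Of the 10 genes, 3 were called in the authors' deposited table, against 18.9% of the 28627 genes with a value there. They were Gata3, Il4 and Il13, with log2 fold changes of -1.82, -1.66 and -3.45 and adjusted p of 8.49e-04, 0.0304 and 2.52e-04 in that table. The authors' deposited table gives Il10 a log2 fold change of 1.96 with an adjusted p of 0.138, and Il4ra, Il1rl1 and Ccr8 values of -0.092, -0.49 and -0.65, none of them called.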

How the data were processed

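RNA of 6 libraries, 3 S100A4-negative and 3 S100A4-positive, was analysed, and table columns were matched to samples by name. The authors deposited FPKM per gene and library; per the submitters' processing notes, HISAT2 2.1.0, Cufflinks and Cuffnorm were used on the build mm10, without saying which made which value. The authors' deposited comparison table holds, per the file headers, 1 mean signal (normalized read count) for each group and gene beside its log2 fold change and its p-value, raw and adjusted; its test is not given in the sources used here, nor is the treatment of strand.

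Whole reads were recovered from the FPKM and those means: 135018 of 135018 values above 0 lay within 0.02 of a whole read, and the libraries held 14925260 to 18660188 reads. The levels given for low genes thus rest on counted reads, and their error includes counting error.

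Genes whose FPKM averaged 1 or more were tested with limma 3.58.1 (R 4.3.3), its prior variance following the level, after taking log2(FPKM + 1). It was repeated after subtracting each library's mean of Cd3d, Cd3e and Cd3g. Exact two-sided permutation tests served single values. On data simulated for this comparison with 13241 genes, 67, 67 and 66 genes were changed 1.5-fold, 2-fold and 4-fold. The dispersion, or spread between libraries beyond counting error, was set to 0.0194. Of the changed genes 10.4%, 70.1% and 92.4% were called, with 10 false calls among the unchanged ones. Whether these values hold at a larger spread, as in Il10 and Ccr4, or where most genes are called, was not tested. Coordinates come from GENCODE M21 (GRCm38, the build mm10 names) and start regions from RefSeq. Other tools were statmod 1.5.0 for array weights, matplotlib 3.10.9, pandas 2.3.3, numpy 2.4.6 and Python 3.11.15.

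The 10 genes and the 22 gene lists were chosen with earlier results of these data known. The genes named are these 10, the gate genes, the neighbours of the cytokine locus, up to 3 called genes per direction and list with the largest change (or 2 with the smallest p), and the 3 genes most alike in pattern. Stat6, Il2rg, Notch1, Arg1, Foxp3, Adgre1, Cxcr5, Zbtb7b and Il2ra among the list genes, and genes listed at 0 or under the minimum, were named after their values were seen. Alternatives were other pseudocounts, filters and scalings, each library left out, array weights, a constant prior, a block by replicate number, other T cell references and limma voom on the reads; after seeing the data, 2 more voom fits were added, using the authors' size factors and relative to CD3.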

Additional observations from a re-analysis of the deposited data

How the results depend on the processing

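Gata3, Il4 and Il13 kept their direction and call in every alternative that tested them; the filter of 5 left Il4 and Il13 out. Among the 10 genes, 3 were called lower without a filter, after median-of-ratios rescaling, after quantile normalization and by voom using the authors' size factors, in place of 6. The calls lost were those of Il1rl1, Il4ra and Ccr8. Of all 13241 genes tested, 5741 were called lower on the deposited scale. After the rescaling, after quantile normalization and by that voom fit, 3217, 4183 and 3156 were. Without a filter, where more genes entered, 8916 were called in either direction, in place of 8253. Leaving out each library in turn gave 3 to 5 genes called lower and 0 or 1 called higher, while 6881 to 8168 of all tested genes were called in either direction. Array weights called 1 gene higher, Il10 (limma adjusted p = 0.0174).

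The log2 fold change of Maf was 0.26, 0.16 and 0.29 after median-of-ratios rescaling, after quantile normalization and by voom using the authors' size factors, and -0.45 to 0.32 without single libraries (0.32 without S100A4-negative and 0.13 without S100A4-positive replicate 2). Slc22a5, beyond the cytokine locus, turned from -0.28 to 0.081 and 0.083 with rescaling and with the authors' size factors. Il13 relative to CD3 turned to -0.53 with a pseudocount of 0.1 and to -1.15 with voom. Over all genes the share of calls in the higher direction was 30.4% on the deposited scale and became 53.3% after median-of-ratios rescaling, 42.0% after quantile normalization and 54.1% by voom using the authors' size factors; the median moved by 0.34, 0.20 and 0.34 on the log2 scale. The cause of these changes was not tested.

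With the replicate number as a block, 3 genes were called lower and 1 higher, Il10 (limma adjusted p = 0.00428), and 8857 of all genes were called in place of 8253. Deviations of same-numbered libraries correlated at 0.376, 0.083 and 0.366 over 13241 genes. The values of replicates 1 and 3 were the highest of all pairs, whereas S100A4-positive replicate 2 correlated best with another number (0.146). The labels do not say whether same-numbered libraries came from the same animals, and these values do not settle it. The depth limits Il5, with at most 4 reads per library, and Il13, with at most 4 reads in each S100A4-positive library.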
